A study of Homo sapiens with 2 samples.

Results

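High mobility group (HMG) proteins are abundant chromatin proteins of the nucleus, and 10 genes that encode them were examined here for contact of their mRNAs with the RNA-binding protein RBMS3. The genes were the HMG-box genes HMGB1, HMGB2 and HMGB3, the AT-hook genes HMGA1 and HMGA2, and the nucleosome-binding genes HMGN1 to HMGN5. A site was counted as a member when its deleted base lay within one of these genes on the gene's own strand in GENCODE release 44. By this rule 62 of the 27706 sites in the list were HMG sites, in 9 of the 10 genes, and they formed 29 of 16060 clusters, a cluster being same-strand sites no more than 50 nt apart.

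HMGB proteins bend DNA through HMG boxes, and HMGB1 is also released from damaged cells as a danger signal. HMGA proteins bind the minor groove of AT-rich DNA through short AT hooks and are produced mainly in embryonic cells and in tumours, where HMGA2 is a textbook target of the let-7 microRNAs. HMGN proteins bind nucleosomes and loosen compact chromatin. The 3′UTR of an mRNA, the stretch between the stop codon and the poly(A) tail, carries many of the sequences that set how long the mRNA lasts, and its cleavage is directed by a poly(A) signal, most often AATAAA.

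The cells were MDA-MB-231, an established human triple-negative breast cancer line, stably transduced with a lentiviral vector for RBMS3 that carried an N-terminal pair of FLAG tags. RNA was crosslinked with ultraviolet light (254 nm, 400 mJ/cm2) and recovered with beads against FLAG (CLIP-seq) in 2 biological replicates, which were the single group. The title of replicate 2 gives this line, whereas its source label gives another line number. Sites were called by the authors on the pooled tags of both replicates, so no value has an error between replicates, and no untagged control or RNA level was analysed here.

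Each site comes with 2 counts, the unique sequenced fragments (tags) that cover it and those that lack the base there. The deletion percentage is the second over the first, and its 95% Wilson interval covers counting error only. At HMG sites the median number of deletions was 71 (range 7 to 1018, quartiles 46.5 and 131.75), against 54 over the list. They were covered by a median of 5891.5 tags (range 7 to 36997), against 2883.5 over the list. The median deletion percentage was 1.77% at HMG sites and 2.95% over the list. These medians mix deep sites and shallow ones, which are set apart below.

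The genomic sequences around the sites with the most deletions are shown because they hold the features that recur below, a run of T and an AATAAA. Each sequence is 30 bases of hg38 on the strand of the transcript, 5′ to 3′. Capitals mark the deleted base together with any run of the same base around it, within which the deleted base cannot be placed.
HMGB1 (chr13:30460907-30460936, minus strand): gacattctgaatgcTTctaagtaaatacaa
HMGB2 (chr4:173331712-173331741, minus strand): gTTTTTTTaaaaaaaattttgtaataaaat
HMGB3 (chrX:150990732-150990761, plus strand): attttctgtaataaagtttCttaatcactc
HMGA1 (chr6:34246202-34246231, plus strand): acttgaataaaaaaaatatccTTTTctgga
HMGA2 (chr12:65966185-65966214, plus strand): tctgttctgcacAAtaaacataacagcctc
HMGN1 (chr21:39342321-39342350, minus strand): tgatcctcaaccAAtaaaatctcagttatg
HMGN3 (chr6:79201250-79201279, minus strand): gtggtttaaaataaaaggTTTacttgtctg
HMGN4 (chr6:26546901-26546930, plus strand): aatatctttcaataaagTTTataattttct
HMGN5 (chrX:81114076-81114105, minus strand): ttactggaTTTatcttaataaaaagactct
AATAAA lies in 8 of these 9 windows, the exception being HMGB1. Further windows are shown because each belongs to a cluster apart from the strongest one of its gene. Those of HMGB1 and HMGB3 hold a further AATAAA, that of HMGN4 holds an ATTAAA, and that of HMGN5 is a coding stretch rich in A and G.
HMGB1, second end (chr13:30459856-30459885, minus strand): tgatactaataaactaataaTTgcagaggt
HMGB3, upstream cluster (chrX:150988727-150988756, plus strand): gaaatgTTTTTgaagttaaataaacagtat
HMGN4, upstream site (chr6:26546473-26546502, plus strand): ctttcataaattaaaTTTTTgtgtatgtgt
HMGN5, coding site (chrX:81114989-81115018, minus strand): taaaaatggaaatgaGaaaggagaagatgc

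The first question was how many HMG transcripts RBMS3 contacted in the 3′UTR. Sites in a 3′UTR were found in 9 of the 10 genes, all but HMGN2, while 31.8% of 20046 protein-coding genes had a 3′UTR site. Both numbers can depend on which genes the cells express, and the part of RNA level was not tested. HMGB3 adds no independent count to the 9, because the study picked it as a gene with 3′UTR binding. Of the 62 sites, 53 lay in 3′UTRs (85.5%, interval 74.7 to 92.2%), beside 76.6% of all sites. The member rule admits only sites within a gene, whereas the list also holds intergenic sites. Shares and medians over all sites or clusters are therefore not like for like with the HMG values. Shares over sites within genes alone were not read. Coding sequence held 5 sites, 2 in HMGB2 and 3 in HMGN5 (8.06%, interval 3.49 to 17.5%, beside 2.4% of all sites). Introns held 3 (4.84%, interval 1.66 to 13.3%, beside 11.3%) and a 5′UTR held 1 (1.61%, interval 0.285 to 8.59%, beside 0.357%), and these 4 were all in HMGA2. The HMGB genes had 27 sites with 4129 deletions in total, the HMGA genes 16 sites with 1565 and the HMGN genes 19 sites with 1673.

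HMG sites differed widely in percentage and could be divided at 30%. Deletions were present in under 30% of tags at 51 HMG sites (median 1.39%, range 0.149 to 10.7%, beside a list median of 1.61%). They were present in 30% or more at 11 sites (17.7%, interval 10.2 to 29%), beside 29.9% of all sites, intergenic ones included. The high sites were shallow, with a median of 28 tags and at most 63, whereas the low sites had a median of 6971 tags and at least 518. Over the list the medians were 16 tags at high sites and 6180 at low sites. HMGA2 held 6 of the 11 high sites, HMGB2 held 2, and HMGB1, HMGB3 and HMGN1 held 1 each. At 4 sites every tag carried the deletion, on 7 to 11 tags.

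**Figure D1:**
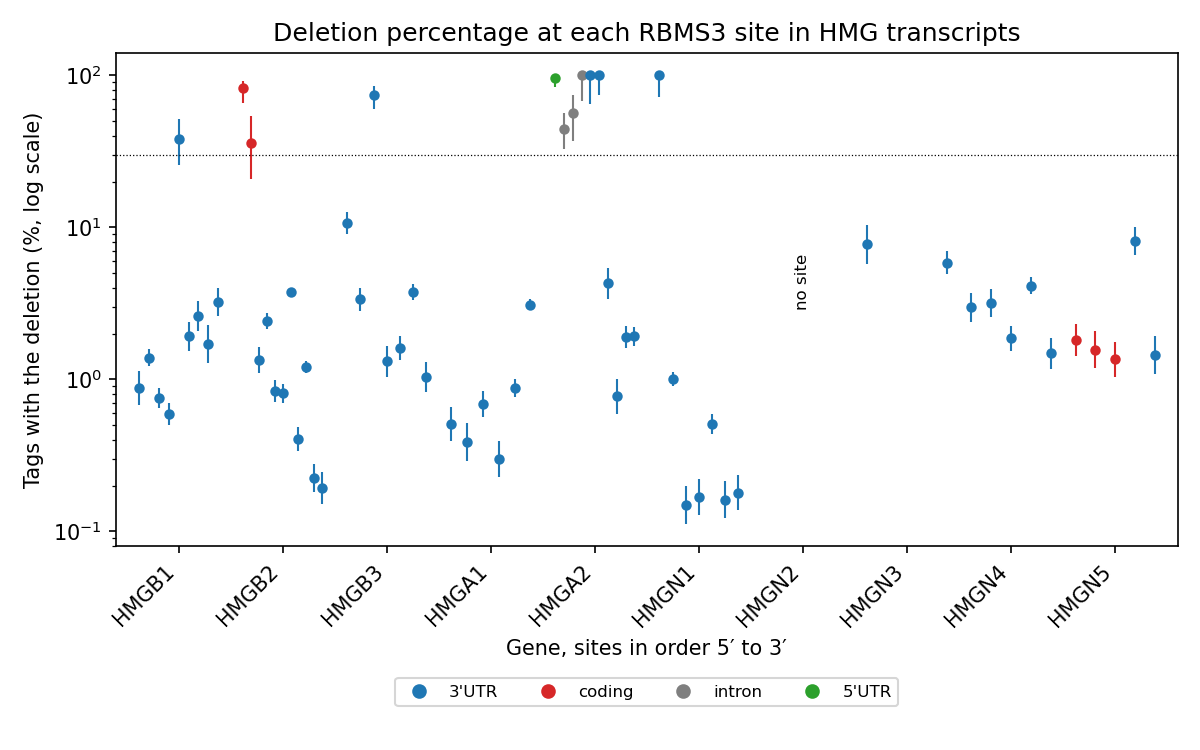
Percentage of tags with the deletion at each of the 62 HMG sites (log scale), by gene and in 5′ to 3′ order within a gene, with 95% Wilson intervals and colours for the part of the transcript. The dotted line is at 30%. The 51 sites below it lie between 0.149 and 10.7%, and 6 of the 11 above it are in HMGA2.

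HMGB2, a chromatin protein of proliferating cells, had the strongest HMG site. At position 173331734 of chromosome 4, in a run of 7 T, the deletion was present in 1018 of 27227 tags (3.74%, interval 3.52 to 3.97%). This site ranked 144th by deletions in the whole list. The other sites with many deletions in the same cluster had 435 of 35947 tags (1.21%) at 173331722, 274 of 11306 (2.42%) at 173331757, 179 of 22132 (0.809%) at 173331743 and 138 of 16438 (0.840%) at 173331749. Each of these 4 lay in a run of T as well. Of the remaining 6 HMGB2 sites, 4 were in this cluster with 67 to 119 deletions, and 2 were coding. Coverage along the cluster rose from 7023 tags at its 5′ side to 36997 near its 3′ side.

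The cluster in HMGB2 lay 10 to 65 nt before the end shared by 2 of its transcripts, at 173331701, with an AATAAA that starts 15 nt after the strongest deletion. No site lay within 100 nt of the end of the representative transcript, at 173331376. The 3′UTR of that transcript has 707 nt, and all of its 51-nt windows occur in a single copy in hg38. The coding sites, at codons 59 and 110, were shallow and high: 24 of 29 tags (82.8%, interval 65.5 to 92.4%) and 10 of 28 (35.7%, interval 20.7 to 54.2%).

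HMGB1 had 9 sites in 4 clusters, and 3 of the clusters lay within 100 nt of annotated ends, at 3 separate places. At the first, before ends at 30460907 and 30460895, the strongest site was 30460921 on chromosome 13 with 241 of 17345 tags (1.39%, interval 1.23 to 1.57%). Its neighbours had 165 of 21889 tags (0.754%) at 30460917, 134 of 22577 (0.594%) at 30460912 and 55 of 6252 (0.880%) at 30460931. No AATAAA or ATTAAA lay within 25 nt of any of these 4, and the nearest related hexamers were AGTAAA and AATACA. At the second end, 30459850, site 30459864 had 76 of 3965 tags (1.92%, interval 1.53 to 2.39%), 14 nt after the start of an AATAAA. At the third end, 30458747, the sites at 30458829, 30458828 and 30458820 had 69 of 2637 tags (2.62%), 45 of 2637 (1.71%) and 85 of 2639 (3.22%). These 3 lay 73 to 82 nt before the end, with no AATAAA or ATTAAA in their windows.

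Coverage at HMGB1 sites was highest in the cluster before 30460907, and no site lay within 100 nt of the most distal one, 30456704, that of the representative transcript. A single high site, 30459973, had 19 of 50 tags (38.0%, interval 25.9 to 51.8%) and lay 123 nt before the second end. HMGB1 has 47 annotated pseudogenes, and this bears on that cluster. With the 51-nt window moved so that it stays inside the transcript, the windows of its 4 sites each occurred 5 times in hg38, so tags could have been split between copies. The windows of the other 5 HMGB1 sites occurred in a single copy.

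HMGB3, which the study also took into a pooled CRISPR-interference screen of lung colonization, had its sites in 2 regions of the 3′UTR. The study drew its screen genes from those with RBMS3 binding in the 3′UTR, so a 3′UTR site here was set in advance. It also required lower mRNA and protein on RBMS3 knockdown, no drop in transcription rate and a link to better survival. Among these genes the paper singles out TXNIP for a lung colonization phenotype. Near the end, at 150990771 of chromosome X, site 150990751 had 262 of 6936 tags (3.78%, interval 3.35 to 4.25%), 10 nt after the start of an AATAAA. The deleted base was a single C, the only C at the strongest site of any of the 9 genes. Sites 150990748, 150990752 and 150990733 of this cluster had 111 of 6888 tags (1.61%), 72 of 6939 (1.04%) and 68 of 5149 (1.32%). The upstream cluster lay 2038 and 2068 nt before the end. There, site 150988733 had 128 of 3813 tags (3.36%, interval 2.83 to 3.98%), with an AATAAA starting 12 nt later, and site 150988703 had 126 of 1178 (10.7%, interval 9.06 to 12.6%) in a run of 8 T.

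The 10.7% at that run of T was the highest percentage among the 51 low HMG sites. The 2 AATAAA of the HMGB3 3′UTR, starting at nt 834 and 2830 of 2860, thus both had a site within 50 nt. The upstream one is not at an annotated end. HMGB3 has 29 annotated pseudogenes, and the window of site 150988733 occurred 5 times in hg38, whereas that of 150988703 occurred in a single copy. The remaining HMGB3 site, 150990654, had 32 of 43 tags (74.4%, interval 59.8 to 85.1%), with a window that occurred 2 times.

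**Figure D2:**
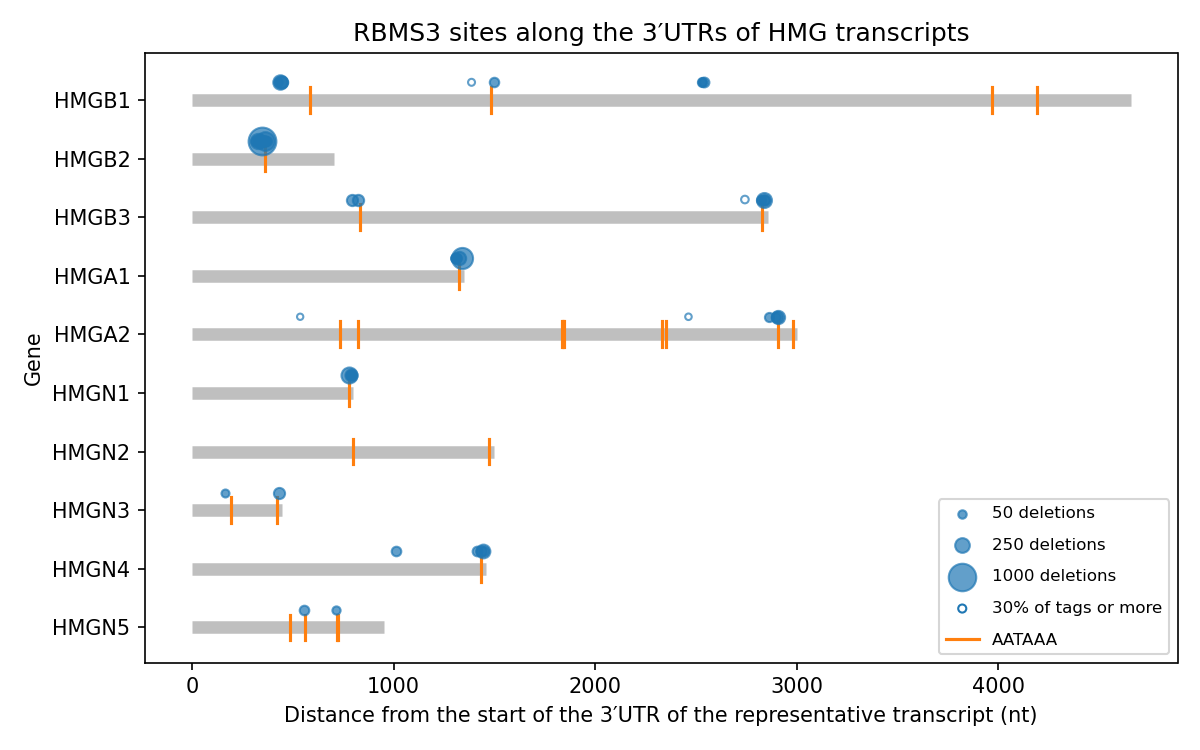
Positions of RBMS3 sites (circles, area scaled to the number of deletions) along the 3′UTR of the representative transcript of each HMG gene (grey bars, nt from its first base), with each AATAAA as an orange line. HMGN1 site 39347396 lies outside this 3′UTR and is left out. Sites crowd at the end in HMGA1, HMGN1 and HMGN4, lie at both an upstream and a terminal AATAAA in HMGB3, and are absent from HMGN2.

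HMGA1, which binds AT-rich DNA and is produced in many tumours, had a single cluster of 6 sites at its end. The strongest, 34246223 on chromosome 6, had 569 of 18353 tags (3.10%, interval 2.86 to 3.36%). It lay 7 nt before the annotated end and 16 nt after the start of the one AATAAA in the 1350-nt 3′UTR. Site 34246204 had 198 of 22474 tags (0.881%), and 34246193 had 102 of 14791 (0.690%). The other 3 had 56 of 10997 (0.509%) at 34246186, 51 of 17027 (0.300%) at 34246197 and 45 of 11600 (0.388%) at 34246189. So 5 of the 6 deletions lay upstream of the AATAAA and the largest lay downstream of it.

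HMGA2 had 10 sites in 7 clusters, the most clusters of the 10 genes, of which 6 were single shallow sites. Its deep cluster lay at the end of the 3002-nt 3′UTR. The strongest site, 65966197 on chromosome 12, had 193 of 10049 tags (1.92%, interval 1.67 to 2.21%) in the first bases of an AATAAA that starts at nt 2908. Sites 65966189, 65966151 and 65966188 had 133 of 6963 tags (1.91%), 68 of 1583 (4.30%) and 54 of 6971 (0.775%). The cluster lay 94 to 140 nt before the annotated end, so that only its last site was within 100 nt. A further AATAAA starts closer to that end, at nt 2981, and had no site after it. Of 9 AATAAA in this 3′UTR, 1 had a site within 50 nt.

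The 6 high HMGA2 sites were spread over the gene. The site in the 5′UTR, 65824697, had 29 of 30 tags (96.7%, interval 83.3 to 99.4%). Those in intron 3 had 28 of 63 (44.4%) at 65876587, 13 of 23 (56.5%) at 65884865 and 8 of 8 at 65925647. Those in the 3′UTR had 7 of 7 at 65963826 and 11 of 11 at 65965752. All 6 had a deleted T.

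The 3′UTR of HMGA2 was also searched for the seed match of let-7, because let-7 repression of HMGA2 is well known. The mature let-7a, as RefSeq gives it, is shown with its seed, bases 2 to 8, in capitals.
hsa-let-7a-5p: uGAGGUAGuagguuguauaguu
The DNA match to this seed, CTACCTC, occurred 4 times in the HMGA2 3′UTR, starting at nt 24, 1259, 1671 and 2524. HMGA1 had 1 match, at nt 963, and the representative 3′UTRs of the other 8 genes had 0. The match lay in 0 of the 20 windows of 3′UTR clusters, and the matches in HMGA2 were 338 to 2838 nt from its nearest site under 30%. The shallow site 65965752 lay 61 nt from one of them. Over the list the match lay in 0.0902% of 3′UTR cluster windows.

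HMGN1, a nucleosome-binding protein that loosens chromatin, had the second most tags of the HMG genes. Site 39342337 on chromosome 21 had 306 of 30369 tags (1.01%, interval 0.901 to 1.13%). It lay inside an AATAAA, 22 nt before the end. The other 5 sites of the cluster lay 7 to 14 nt before the end, after the signal. Among them, 39342327 had 157 of 30896 tags (0.508%), and the rest, at 39342329, 39342328, 39342324 and 39342322, had 46 to 52 deletions in 0.149 to 0.180% of tags. These 4 were the lowest percentages of all HMG sites. A separate site, 39347396, had 10 of 10 tags, in intron 4 of the representative transcript and in the 3′UTR of another annotated transcript.

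The 3′UTR of HMGN1 was the least unique of the 10. With 32 annotated pseudogenes, 29.9% of its 51-nt windows were found in a single copy in hg38, and others in up to 11 copies. Of the last 150 windows, 11.3% were found in a single copy. The windows of the HMGN1 sites themselves each occurred in a single copy.

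HMGN4, a close relative of HMGN2, had 5 sites. At the end, site 26546918 on chromosome 6 had 213 of 5148 tags (4.14%, interval 3.63 to 4.72%), 7 nt after the start of the one AATAAA. Its neighbours had 103 of 5531 (1.86%) at 26546911, 83 of 2623 (3.16%) at 26546892 and 70 of 4716 (1.48%) at 26546925. The upstream site, 26546488, lay 445 nt before the end with 79 of 2653 tags (2.98%, interval 2.40 to 3.70%), 6 nt after the start of an ATTAAA. All 5 sites also lie in a long unnamed gene annotated on the same strand.

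HMGN3 had 2 sites, each before an annotated end. Site 79201259 on chromosome 6 had 124 of 2112 tags (5.87%, interval 4.95 to 6.96%), 6 nt before an end and 11 nt after the start of an AATAAA. Site 79201525 had 40 of 518 tags (7.72%, interval 5.72 to 10.3%), 46 nt before the end of a shorter transcript, in a run of 5 T.

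HMGN5, the HMGN protein with a long acidic tail, was the one gene with deep sites in coding sequence. These 3 sites, at codons 165, 219 and 245, had 64 of 3498 tags (1.83%, interval 1.44 to 2.33%), 48 of 3057 (1.57%, interval 1.19 to 2.08%) and 53 of 3904 (1.36%, interval 1.04 to 1.77%). The deleted bases were G, T and A. Their windows held a median of 54.9% A and 35.3% G, whereas 3′UTR sites under 30% had medians of 35.3% A and 13.7% G. Over the list 215 of 664 coding sites were under 30%, in 65 genes, and 12 of these genes had 3 or more. Those 215 sites had a median of 0.439% of tags and a median depth of 31506 tags. Their windows held medians of 33.3% A and 15.7% G.

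The 3′UTR sites of HMGN5 both lay before an AATAAA and away from the end. Site 81114095 on chromosome X had 79 of 973 tags (8.12%, interval 6.56 to 10.0%), 396 nt before the annotated end. Site 81113938 had 45 of 3095 tags (1.45%, interval 1.09 to 1.94%), 239 nt before it. The AATAAA started 6 and 7 nt after the deletion. HMGN5 was thus the one bound HMG gene with no site within 100 nt of a 3′ end.

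HMGN2, a close relative of HMGN1 and HMGN4, had no listed site, and none lay within 5000 nt of the gene on its strand. Its 3′UTR has 1497 nt and AATAAA at nt 799 and 1476. HMGN2 has 38 annotated pseudogenes, and 674 of its 1447 windows of 51 nt occurred in several copies. All of these started between nt 1 and 777. The last 150 windows each occurred in a single copy at this length, and shorter windows were not counted. A list of called sites gives no coverage where no site was called, so how many tags HMGN2 had is not known. The 155 annotated HMG pseudogene loci held 0 sites on either strand.

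**Figure D3:**
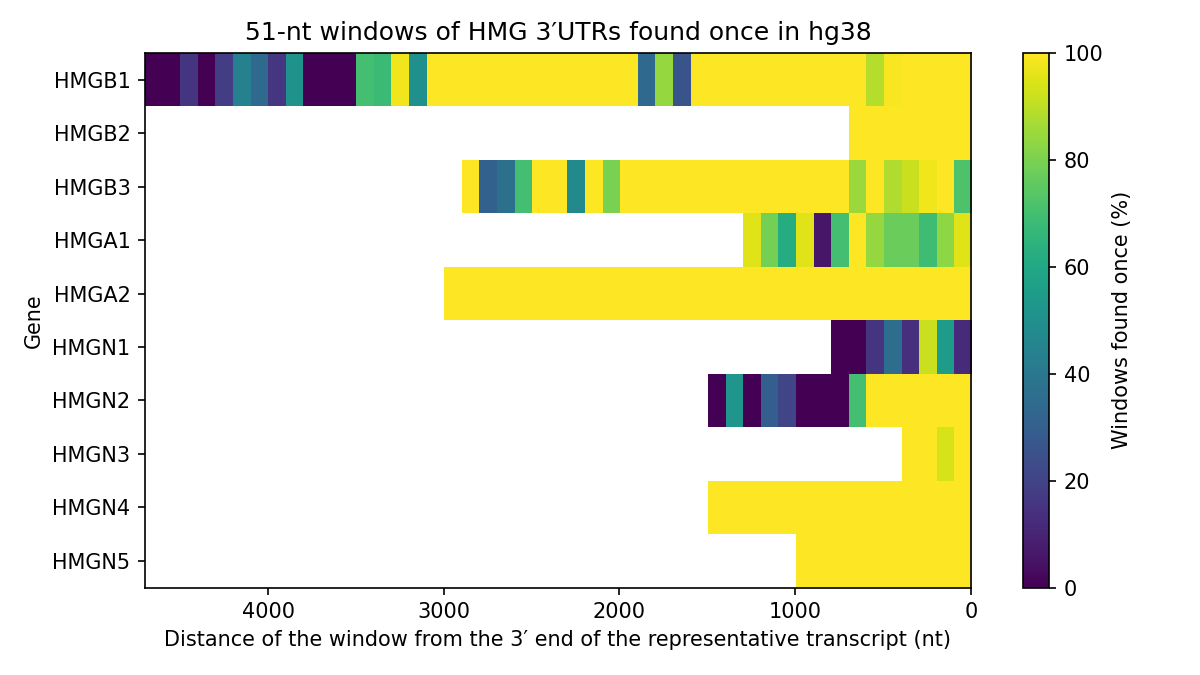
Share of 51-nt windows that occur in a single copy in hg38 (colour, percent), in bins of 100 nt by distance of the window's end from the 3′ end of the representative transcript. HMGN1 is mostly multi-copy up to its end (11.3% of its last 150 windows are single-copy), while HMGN2 is multi-copy only in the first part of its 3′UTR.

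The next question was how close the sites lay to transcript ends. The distance was taken to the nearest downstream end of a coding transcript of the gene. The 53 HMG 3′UTR sites had a median distance of 37 nt (quartiles 15 and 94), beside a median of 38 nt over all 3′UTR sites. In all, 40 of 53 (75.5%, interval 62.4 to 85.1%) were within 100 nt, beside 65.8% of all 3′UTR sites, a background that lies inside the interval. With 1 site per cluster the HMG share was 55.0%, and the list share of this kind was not read. HMGB2, HMGA1 and HMGN1 each put many sites into a single end cluster. The library protocol tailed the recovered RNA with poly(A) and captured it on oligo(dT) beads. Fragments with a natural tail can enter the library by the same route, and the part of this step in the crowding at ends was not tested.

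**Figure D4:**
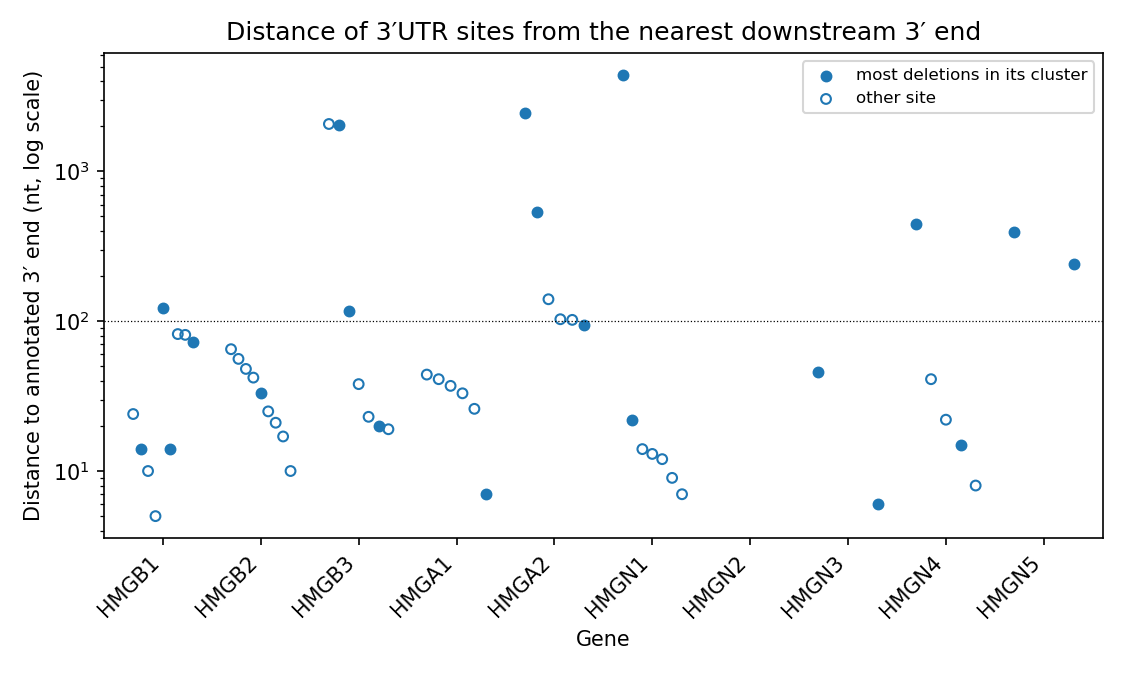
Distance in nt (log scale) from each 3′UTR site to the nearest downstream annotated 3′ end, by gene, with filled circles for the site with the most deletions in its cluster. The dotted line is at 100 nt. All 9 HMGB2 and all 6 HMGA1 sites lie below it, and both HMGN5 sites lie above it.

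AATAAA or ATTAAA lay within 25 nt of the deletion in 13 of the 20 HMG 3′UTR clusters (65.0%, interval 43.3 to 81.9%), beside 60.6% of all 3′UTR clusters. AATAAA accounted for 12 of the 13. Relative to the signal, the strongest deletion of the cluster lay upstream in 5 clusters, inside in 2 and downstream in 6. Over all 34 3′UTR sites with a signal in the window, 15 deletions were upstream, 4 inside and 15 downstream. HMG deletions thus lay on both sides of the signal, from 19 nt before its first base to 16 nt after it.

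**Figure D5:**
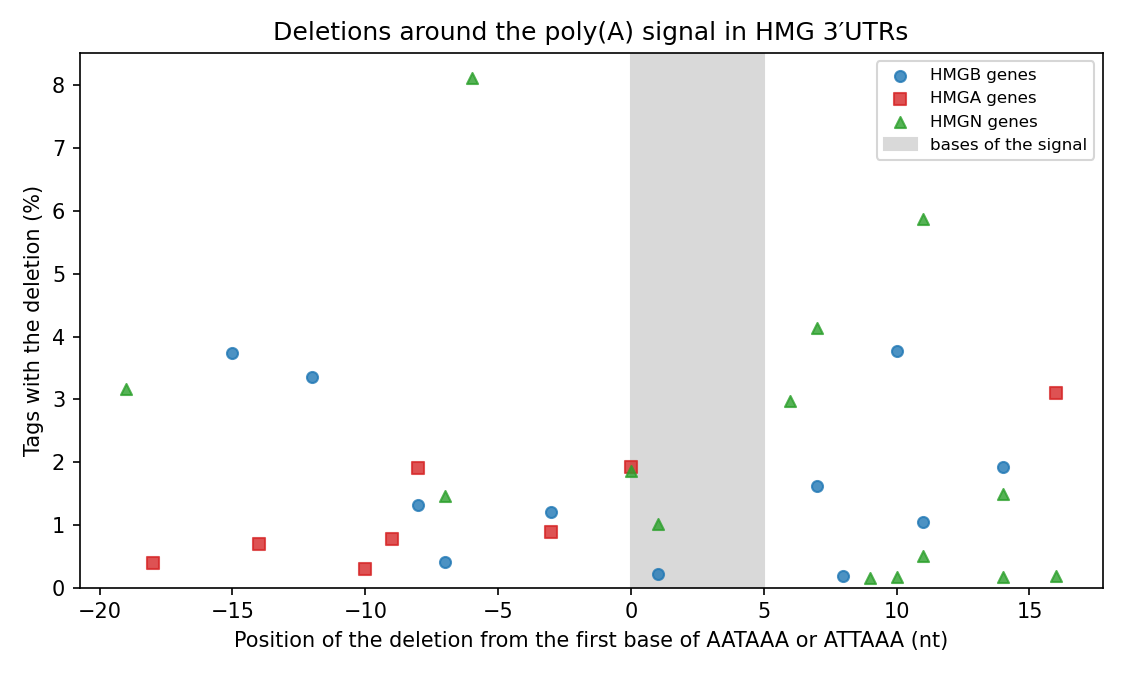
Deletion percentage against the position of the deletion from the first base of AATAAA or ATTAAA (0 on the x axis, negative upstream, in nt) at the HMG 3′UTR sites under 30%. Grey marks the span of the signal. Deletions sit on both sides of it in each of the 3 families, and 4 of all 34 sites are inside it.

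The study's own motif search at its RBMS3 sites ranked AATAAA, the canonical poly(A) signal, as most significant. It also describes an AUA motif for RBMS3, a 7-nt pattern around a central ATA. That pattern is made of A and T apart from a first base that may also be G. In the HMG windows the AUA pattern was read as follows. It lay within 25 nt in 10 of the 20 HMG 3′UTR clusters (50%, interval 29.9 to 70.1%), beside 47.8% of all 3′UTR clusters. An AATAAA preceded by any base other than C itself matches the pattern. Matches that do not contain AATAAA lay in 3 clusters (15%, interval 5.24 to 36.0%), beside 14.6% over the list. These were the clusters of HMGB1 site 30459973, HMGN1 site 39347396 and HMGN5 site 81113938. The strongest site of no gene had such a match.

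The deleted base was T in 20 of the 29 HMG clusters (69.0%, interval 50.8 to 82.7%), beside 67.5% of all clusters. A was deleted in 4, G in 4 and C in 1. In most cases the base lay in a run of the same base, and in the 6 clusters where it differed from both neighbours, T was deleted in 1. The same share was not read over the list.

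The strongest sites of the 9 genes were compared pairwise by a two-sided Fisher exact test on tags with and without the deletion, with Benjamini-Hochberg adjustment over the 36 pairs. The test compares sites in these pooled libraries and covers counting error only. The sites were also called, and the strongest of each gene picked, from the same counts. The part of this selection in the differences was not tested. In descending order the percentages were 8.12% in HMGN5, 5.87% in HMGN3, 4.14% in HMGN4, 3.78% in HMGB3, 3.74% in HMGB2, 3.10% in HMGA1, 1.92% in HMGA2, 1.39% in HMGB1 and 1.01% in HMGN1. The order is that of the sites with the most deletions and not of the genes. HMGB3 also had a site at 10.7% (126 of 1178 tags), while the other HMGN5 sites had 1.36 to 1.83%. The adjusted p was below the threshold of 0.05 for 33 pairs. HMGN5 and HMGN3, neighbours in this order, differed by 2.25 percentage points (interval 0.351 to 4.35, Fisher exact test, adjusted p = 0.0253). HMGA2 and HMGB1 differed by 0.531 points (interval 0.220 to 0.862, Fisher exact test, adjusted p = 0.00108).

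The 3 pairs that did not pass were all among HMGN4, HMGB3 and HMGB2. HMGB3 and HMGB2 differed by 0.0385 points (interval -0.445 to 0.561, Fisher exact test, adjusted p = 0.887). HMGN4 exceeded HMGB3 by 0.360 points (interval -0.337 to 1.08, Fisher exact test, adjusted p = 0.330) and HMGB2 by 0.399 points (interval -0.162 to 1.02, Fisher exact test, adjusted p = 0.187). The order ran against depth at both extremes, with 973 tags at the HMGN5 site and 30369 at the HMGN1 site, and the part of depth and of base runs was not tested.

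By total deletions, the bound HMG genes ranked from 147th (HMGB2, 2441 deletions) to 3138th (HMGN3, 164 deletions) of 7542 protein-coding genes with a site. HMGA1 was 584th with 1021, HMGB1 713th with 889, HMGB3 824th with 799 and HMGN1 985th with 672. HMGN4 with 548 and HMGA2 with 544 were 1229th and 1243rd, and HMGN5 with 289 was 2163rd. The median place was in the top 13.1%. A total of this kind rises with the level of the transcript, which the list does not give.

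Relatives and partners of the HMG genes were read from the same list. Of 24 other HMG-box genes, 16 had a 3′UTR site (66.7%), again beside 31.8% of protein-coding genes. The 24 include HMGB4, which had 0 sites, and leave out the SOX genes. TFAM, which packages mitochondrial DNA, had 8 sites with 879 deletions, the strongest in 311 of 7755 tags (4.01%). BBX had 8 sites with 693 deletions, and its strongest was in 183 of 4774 tags (3.83%). NSD2, a histone methyltransferase, had 11 sites with 570 deletions, the strongest in 115 of 3793 tags (3.03%). The others with a 3′UTR site were SSRP1, SMARCE1, PBRM1, TOX, TOX2, TOX4, HMGXB3, HMGXB4, HMG20B, HBP1, LEF1, TCF7L2 and KMT2C, while CIC had an intronic site alone. LEF1 (11 of 14 tags) and HMGXB3 (10 of 10 tags) had only a shallow site.

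Among 9 genes for HMGB1 receptors and for the SET complex, of which HMGB2 is a part, 5 had a 3′UTR site (55.6%, beside 31.8% of protein-coding genes). SET, the histone chaperone that names the complex, had 6 sites with 533 deletions, the strongest in 169 of 19555 tags (0.864%), 9 nt before an end. ANP32A, its acidic partner, had 2 sites with 219 deletions, the strongest in 157 of 3755 tags (4.18%). TLR4, a receptor on the cell surface, had 4 sites with 217 deletions, the strongest in 72 of 5978 tags (1.20%). APEX1 and NME1 of the SET complex also had sites, whereas the other receptors, AGER, TLR2, CXCR4 and HAVCR2, had 0. The 55.6% thus joins unlike groups, with TLR4 the only receptor that had a site. Of 5 RNA-binding proteins tied to HMGA mRNAs, 2 had a 3′UTR site (40%), near the 31.8% of all protein-coding genes. IGF2BP3 had 5 sites with 415 deletions (strongest 209 of 5093 tags, 4.10%) and IGF2BP2 had 1 site with 81 of 4995 tags (1.62%), while LIN28A, LIN28B and IGF2BP1 had 0.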

How the data were processed

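The deposited values are counts. Per the study's methods, the authors appended molecular identifiers to the reads and ran the CLIP Tool Kit (version not given in the sources used here). Reads were aligned to hg38 and collapsed to unique tags, the replicates were pooled, and deletion sites were called and filtered on a false discovery rate under 10% and on a fold change over 10, the fold itself not being defined. The deposited other column names each site with its tags and deletions. They are not normalized, and library depth is not known, so depth is given per site as tags.

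The deleted base is the centre of the 21-nt interval. Sites were placed on GENCODE release 44 by strand, a 3′UTR taking precedence over a 5′UTR, then other exons, then introns. The 3′UTR includes the stop codon, and its positions count from 1 there. Ends of transcripts without a coding sequence or marked incomplete were left out. Clusters joined sites within 50 nt and were stood for by their most deleted site, and windows had 25 nt on each side. The AUA pattern was, in order, a base other than C, then A or T, then ATA, then A or T, then A. Motifs were read on the transcript strand. Exact copies of windows were counted on both strands of 25 hg38 chromosomes. Pairs of sites were compared by Fisher's exact test. Functions were tested on simulated data.

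All 10 members are named with their sites (beyond 10 sites in a gene, 5 in full), and of each related list the genes with a site, 3 of them with values. Members and lists were chosen with earlier results of these data known. Python 3.11.15, numpy 2.4.6, scipy 1.17.1, numba 0.67.0 and matplotlib 3.10.9 were used. Alternatives were other deletion minimums, percentages, clusters, windows, motifs and annotation rules.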

Additional observations from a re-analysis of the deposited data

How the results depend on the processing

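No paired analysis was possible because both replicates were pooled into 1 list, and for the same reason neither could be left out. Of 53 alternatives to 10 summary values, 41 stayed within the interval of the value reported (counts within 1.5 times) and 12 moved. The 3′UTR share became 95.5% with at least 50 deletions, 94.1% at sites under 30% and 69.0% with 1 site per cluster. The share within 100 nt of an end became 55.0% with 1 site per cluster and 42.3% with the representative transcript alone, and the median distance became 83.5 and 189.5 nt. The poly(A) signal share became 84.6% with at least 50 deletions and 25% with 10 nt on each side. The AUA share became 0% with 10 nt and 15% without matches that contain AATAAA. T was 16.7% of deleted bases where the base differed from both neighbours (6 clusters). In each case the cause was not tested. Apart from the AUA share without AATAAA, these changed values were read for HMG sites only, with no list value beside them. They therefore do not show whether HMG sites differ from the list. The 9 genes with a 3′UTR site stayed at 9 under every alternative run, and the pairs that differed were 29 or 31 in place of 33. Of the 62 site windows, 59 occurred in a single copy, 52 at 31 nt, 62 with the longest windows tried and 56 when kept inside the transcript. Leaving out HMGN1, adding 10 weaker signals and keeping windows inside the transcript were chosen after seeing the data. Sites in 1 gene are not independent, and shallow sites have wide intervals.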

Other observations

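Other 3′UTR elements were rare or at the level of the list in HMG windows. ATTTA, the core of AU-rich elements, lay within 25 nt in 4 of the 20 HMG 3′UTR clusters (20%, interval 8.07 to 41.6%), beside 20.7% of all 3′UTR clusters. The Pumilio pattern TGTANATA lay in 0 of the 20, where an interval up to 16.1% is allowed, beside 3.17% over the list. ATTAAA lay in 1 of the 20 clusters (5.00%, interval 0.888 to 23.6%), beside 16.1%, and AATAAA in 12 (60.0%, interval 38.7 to 78.1%), beside 47.3%.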
